A study of Mus musculus with 6 samples.

Results

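Toll-like receptors are the pattern receptors with which macrophages detect microbes, and Cd14 is the co-receptor that hands lipopolysaccharide to Tlr4. The 10 genes described here are Tlr1, Tlr2, Tlr3, Tlr4, Tlr6, Tlr7, Tlr8, Tlr9, Tlr13 and Cd14, taken by gene symbol from a table of 55487 genes. Each symbol had 1 row, and all 10 passed the filter on low counts, among 13821 genes tested. RNA sequencing was done on primitive macrophages, the first macrophages of the embryo, derived from embryonic stem cells established from Ts1Cje mice (3 libraries) or wild-type mice (3 libraries). Ts1Cje mice, used to model Down syndrome, carry an extra copy of the distal part of chromosome 16. All 6 cultures were differentiated over 12 days with M-CSF, IL-3, SCF, VEGF, activin A, BMP-4 and FGF2, and the labels name no receptor ligand given to the cells. The labels number the libraries as lots and do not say whether a lot is a separate stem cell line or a separate differentiation, so p-values measure only the spread between these libraries, which may be technical. None of the 10 genes lies on chromosome 16: they map to chromosomes 3, 4, 5, 8, 9, 18 and X.

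Each Toll-like receptor has an outer part of leucine-rich repeats that binds the ligand, a membrane span and an inner TIR domain that recruits adaptor proteins. Tlr1, Tlr2, Tlr4 and Tlr6 work at the cell surface, where Tlr2 pairs with Tlr1 or Tlr6 to bind bacterial lipoproteins and Tlr4, with its partner Ly96 and with Cd14, binds lipopolysaccharide. Tlr3, Tlr7, Tlr8, Tlr9 and Tlr13 work in endosomes and bind nucleic acids. Signals pass through Myd88, or through Ticam1 for Tlr3 and for Tlr4 inside the cell, to NF-kappaB and interferon regulatory factors.

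Total counts were 25484294 to 32658148 per library, with 17586 to 18935 genes detected. Wild-type replicate 1 stood apart on the first principal component (37.8% of the variance), at 88.2, against -38.7 to 18.7 for the other 5 libraries. Wild-type replicate 3, at -38.7, lay at the opposite end, beyond the Ts1Cje libraries at -36.7 to -11.3. The first component thus did not separate the genotypes. All 10 macrophage markers listed were transcribed, with a summed level of 8502 to 9340 TPM, a level that takes gene length into account, in Ts1Cje and 8868 to 10389 TPM in wild-type libraries, and 3 of them had positive and 7 negative log2 fold changes. Of 9 neutrophil markers the sum was 1.15 to 3.89 TPM in Ts1Cje and 0.492 to 3.4 TPM in wild-type libraries, and Ly6g had no count. Of 8 mast cell and megakaryocyte markers it was 188 to 623 TPM in Ts1Cje and 140 to 772 TPM in wild-type libraries, most of it Pf4. Of 5 epithelial markers it was 7.99 to 15.3 TPM in Ts1Cje libraries and 28.5, 0.484 and 0.358 TPM in wild-type replicates 1 to 3. Sums of erythroid, endothelial, mesenchymal and pluripotent markers were at most 33.3 TPM in any library. Of 9 dendritic cell markers, cells that also use Tlr7 and Tlr9, the sum was 28.9 to 54.1 TPM in Ts1Cje and 21.2 to 106 TPM in wild-type libraries, most of it Itgax, with no count for Flt3, Siglech and Cd209a. Among B cell genes, Ighm, an antibody heavy chain gene, had 13.1 to 31.6 TPM in Ts1Cje and 53.6 to 210 TPM in wild-type libraries, without overlap (adjusted p = 0.792 by edgeR, called by DESeq2). Cd79b, a part of the B cell receptor, had 1.32 to 2.73 TPM in Ts1Cje and 1.44 to 4.87 TPM in wild-type libraries, and Pax5, a transcription factor of B cells, had no count in any library. In bulk RNA, fewer cells of a type and less RNA per cell cannot be told apart.

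Transcripts of the whole set were found in the cultures of both genotypes, with mean levels over the 6 libraries from 1.25 TPM for Tlr9 to 299 TPM for Tlr13. Tlr13, the receptor for bacterial ribosomal RNA, which mice have and humans lack, was the highest in all 6 libraries and ranked 439 among all genes by mean TPM. Tlr7 followed at rank 909, then Cd14 at 1109, Tlr2 at 1687, Tlr4 at 1743, Tlr8 at 3157, Tlr1 at 3285, Tlr6 at 6014, Tlr3 at 6314 and Tlr9 at 12498. Within each genotype the ranges of neighbours in this order did not overlap for Tlr13 and Tlr7, for Tlr1 and Tlr6 and for Tlr3 and Tlr9, and each first gene of these pairs was above the second in 6 of 6 libraries. The other neighbours could not be ranked beyond their spread in both genotypes. Tlr7 was above Cd14 in 4 of 6 libraries, Cd14 above Tlr2 in 5, Tlr2 above Tlr4 in 3, Tlr4 above Tlr8 in 5, Tlr8 above Tlr1 in 3 and Tlr6 above Tlr3 in 4.

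**Figure D1:**
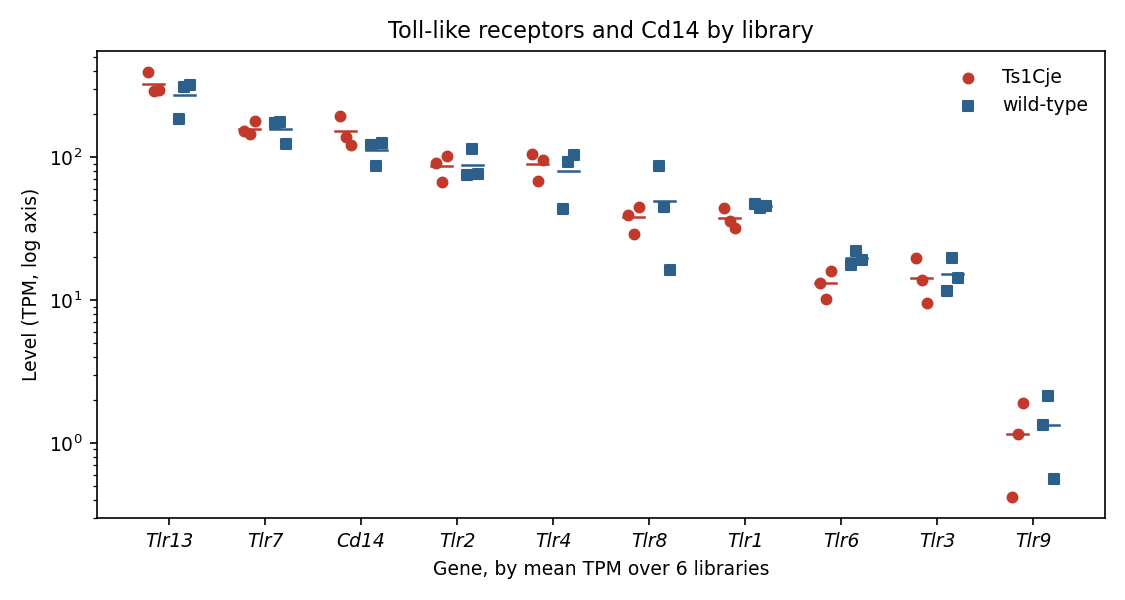
Level of each gene in each library, in TPM on a log axis, with Ts1Cje libraries as circles and wild-type libraries as squares and a short line at the mean of 3. Tlr13 lies above every other gene of the set in each library, and Tlr9 lies near 1 TPM, below all others.

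Between the genotypes none of the 10 genes passed. At an adjusted p of 0.05 the edgeR quasi-likelihood test called 0 of the 10, where it called 0.00724% of all genes tested. At an unadjusted p under 0.05 it found 0 of the 10, where 5.79% of all genes tested had one. DESeq2 and limma-voom also called 0, each with 1 of the 10, Tlr6, at an unadjusted p under 0.05, which 7.15% of all genes tested had by DESeq2 and 6.45% by limma-voom. The median log2 fold change was -0.05 over the 10 genes and -0.01 over all genes tested, with 4 positive and 6 negative values. For 2 of the 10, Tlr1 and Tlr6, every Ts1Cje library lay below every wild-type library in CPM (counts scaled by library size and TMM factor), which held for 5.72% of all genes tested. For 1, Cd14, all Ts1Cje libraries lay above, which held for 6.38%. With so few genes these counts are given beside the background and no test was made of them.

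**Figure D2:**
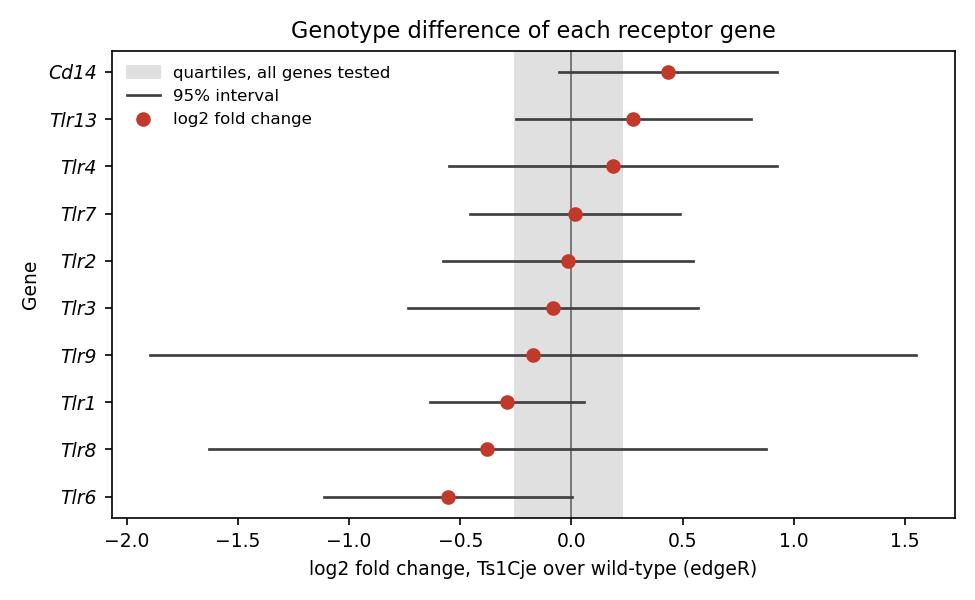
Log2 fold change of Ts1Cje over wild-type for each gene from edgeR (points) with its 95% interval (lines); the grey band spans the quartiles of all 13821 genes tested, -0.26 to 0.23. Every interval includes 0, and the widest are those of Tlr9 and Tlr8.

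Among the surface receptors, Tlr1 and Tlr6 were lower in all 3 Ts1Cje libraries. Both serve as partners of Tlr2, Tlr1 for triacylated and Tlr6 for diacylated lipoproteins, and they lie side by side on chromosome 5 on the minus strand of mm10. Tlr1 (ENSMUSG00000044827) spans chr5:64924679-64933563 and Tlr6 (ENSMUSG00000051498) spans chr5:64952031-64960097, with 18467 bases between them. Each has its whole coding sequence in 1 exon. The coding sequences of the pair are alike enough to bear on how their reads were counted, and the longest stretch they share is therefore shown.

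Along the Tlr1 coding sequence of 2385 bases, identity with Tlr6 was 47% to 68% in the 100-base windows up to base 1300, then 97% to 100% in the windows from base 1301 to 2200, and 60% to 72% after it. In all, 6 runs of at least 50 identical bases lie between bases 1294 and 2085 and hold 31.4% of the Tlr1 coding sequence. The longest run has 229 bases. It is printed here in capitals, 5′ to 3′ on the coding strand, with the 20 bases on each side of it in lower case, read from GENCODE M21 transcripts at chr5:64925517-64925785 for Tlr1 and chr5:64953808-64954076 for Tlr6 (mm10, minus strand).
Tlr1: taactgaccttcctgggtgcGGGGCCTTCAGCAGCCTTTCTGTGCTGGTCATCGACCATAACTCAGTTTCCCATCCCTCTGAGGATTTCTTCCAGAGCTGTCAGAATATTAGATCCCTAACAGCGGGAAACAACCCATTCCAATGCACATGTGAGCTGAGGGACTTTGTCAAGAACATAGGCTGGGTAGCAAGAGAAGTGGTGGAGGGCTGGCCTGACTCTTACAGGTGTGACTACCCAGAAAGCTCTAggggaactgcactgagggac
Tlr6: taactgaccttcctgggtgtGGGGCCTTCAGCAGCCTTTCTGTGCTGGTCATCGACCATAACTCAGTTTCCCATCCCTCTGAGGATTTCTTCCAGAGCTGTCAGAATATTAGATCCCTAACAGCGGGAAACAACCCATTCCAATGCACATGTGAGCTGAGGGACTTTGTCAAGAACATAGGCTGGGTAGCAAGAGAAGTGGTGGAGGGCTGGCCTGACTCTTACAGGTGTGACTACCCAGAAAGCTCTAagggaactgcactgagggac
A read that falls wholly inside such a run cannot be assigned to either gene by its sequence, and the sources used here do not say how the counting treated reads with several positions. The counts of Tlr1 and Tlr6 are therefore uncertain. No other gene among 55341 GENCODE gene names shared a word of 50 bases with the coding sequence of Tlr1 or Tlr6, and the coding sequences of the other 8 genes shared none with any gene. Over the 36 pairs of Toll-like receptors, overall coding identity was 74.1% for Tlr1 and Tlr6 and at most 55.6% for any other pair.

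**Figure D3:**
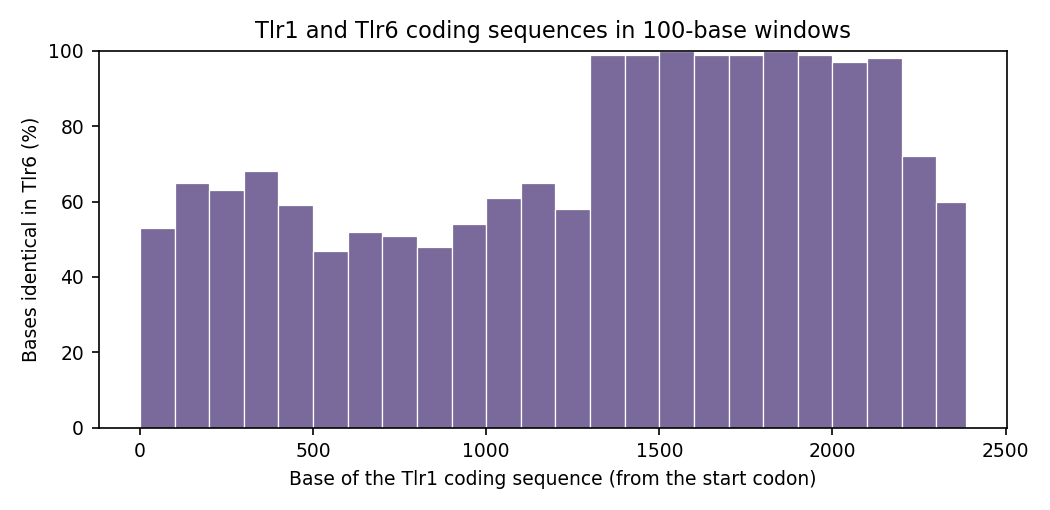
Share of bases of the Tlr1 coding sequence that are identical in Tlr6, in windows of 100 bases from the start codon (the last window has 85). The windows from base 1301 to 2200 reach 97% to 100%, against 47% to 72% elsewhere.

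Tlr6 had 533, 328 and 634 counts in Ts1Cje replicates 1 to 3, against 552, 728 and 622 counts in wild-type replicates 1 to 3. As levels these were 13.1, 10.1 and 16.1 TPM in Ts1Cje and 17.5, 21.9 and 19.1 TPM in wild-type libraries. The groups did not overlap in TPM or CPM, while the unscaled counts did overlap. The closest libraries were Ts1Cje replicate 3 and wild-type replicate 1, at 16.1 and 17.5 TPM, or 21.6 and 22.3 CPM. The log2 fold change was -0.56 ± 0.24 (SE), with a 95% interval of -1.11 to 0.00, an unadjusted p of 0.0510 and an adjusted p of 0.792 (edgeR quasi-likelihood, Benjamini-Hochberg over 13821 genes). It was -0.80 without Ts1Cje replicate 3 and -0.38 without Ts1Cje replicate 2, with adjusted p from 0.366 to 0.990 over the alternatives.

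Tlr1 levels were 44.2, 35.8 and 31.8 TPM in Ts1Cje replicates 1 to 3, against 46.9, 44.4 and 45.4 TPM in wild-type replicates 1 to 3. The wild-type libraries lay close together and Ts1Cje replicate 1 lay just under them, so that the groups were apart by a narrow margin. Its log2 fold change was -0.29 ± 0.15 (SE), with an unadjusted p of 0.0885 and an adjusted p of 0.792 by edgeR. Since reads of the shared run may have been given to either gene or to none, the pair was also summed. Tlr1 and Tlr6 together had 63.6, 51.1 and 60 CPM in Ts1Cje, against 76, 76.7 and 73.2 CPM in wild-type libraries. Each gene alone was lower in every Ts1Cje library, so the sum had to be lower too and is no separate check. A sum does not bring back reads that counting left out.

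The next tested coding genes on either side of the pair were Klf3, a zinc finger transcription factor gene 91777 bases before Tlr1, and Fam114a1, 9973 bases after Tlr6. Neighbours of all members were looked up after the values were seen. Klf3 averaged 77.2 CPM in Ts1Cje and 110 CPM in wild-type libraries, also without overlap. Ts1Cje lay below in this way for 5.72% of all genes tested. The log2 fold change of Klf3 was -0.52 ± 0.17 (SE; unadjusted p = 0.0167 and adjusted p = 0.792 by edgeR). Fam114a1 averaged 54.1 CPM in Ts1Cje and 67.8 CPM in wild-type libraries, at -0.33 ± 0.20 (SE), and its groups overlapped. The other neighbour with an unadjusted p under 0.05 was Fam149a, 13373 bases before Tlr3, at -0.76 ± 0.27 (SE; unadjusted p = 0.0239 and adjusted p = 0.792 by edgeR). All remaining neighbours of the members had a larger p. Over all genes tested, 5.79% had an unadjusted p under 0.05, and no neighbour passed the adjusted threshold.

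Tlr2, the shared partner of this pair (chr3:83836272-83841767), had 90.3, 67.1 and 101 TPM in Ts1Cje replicates 1 to 3, against 74.4, 114 and 76.6 TPM in wild-type replicates 1 to 3. The lowest and the highest library thus belonged to Ts1Cje and wild-type, and the groups overlapped throughout. Its log2 fold change was -0.02 ± 0.24 (SE), and the 95% interval runs from a fold of 0.670 to 1.46. The ratio of Tlr2 to the sum of Tlr1 and Tlr6 in TPM was 1.58, 1.46 and 2.12 in Ts1Cje, against 1.16, 1.72 and 1.19 in wild-type libraries.

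Tlr4, the signalling receptor for lipopolysaccharide (chr4:66827584-66930284), had 104, 68.6 and 95.7 TPM in Ts1Cje replicates 1 to 3, against 43.6, 92.6 and 103 TPM in wild-type replicates 1 to 3. Wild-type replicate 1 was low and the other 5 libraries lay within the same range. Its log2 fold change of 0.19 ± 0.32 (SE) became -0.11 without wild-type replicate 1.

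Cd14 (chr18:36725067-36726798) is anchored to the membrane by a lipid and has no signalling domain of its own. Its counts were 3668, 2090 and 2221 in Ts1Cje replicates 1 to 3, against 1785, 1339 and 1908 in wild-type replicates 1 to 3. In CPM these were 109, 77.8 and 75.7 in Ts1Cje, against 72.2, 50.1 and 71.7 in wild-type libraries, so that the groups did not overlap. In TPM they did overlap, at 194, 139 and 121 in Ts1Cje, against 122, 86.8 and 126 in wild-type libraries. The log2 fold change was 0.43 ± 0.21 (SE), with a 95% interval of -0.05 to 0.92, an unadjusted p of 0.0744 and an adjusted p of 0.792 by edgeR. It was 0.25 without Ts1Cje replicate 1, the highest library, and 0.27 without wild-type replicate 2, the lowest. Cd14 was 1.86, 2.02 and 1.27 times Tlr4 in TPM in Ts1Cje, against 2.79, 0.937 and 1.23 times in wild-type libraries, where replicate 1 combined a low Tlr4 with a middling Cd14.

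Endosomal receptors held most of the Toll-like receptor transcripts. Of the summed TPM of the 9 receptors, the 5 endosomal ones made up 70.6%, 72.6% and 68.4% in Ts1Cje, against 71.6%, 66.9% and 65.9% in wild-type libraries. Tlr13 alone made up 46%, 44.1% and 38.1% in Ts1Cje, against 28.9%, 37.6% and 44.4% in wild-type libraries. The ranges of both shares overlapped between the genotypes, and the Tlr13 share was lowest in wild-type replicate 1.

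Tlr13 (ENSMUSG00000033777, chrX:106143204-106160493) had 394, 292 and 296 TPM in Ts1Cje replicates 1 to 3, against 186, 310 and 318 TPM in wild-type replicates 1 to 3. As with Tlr4, wild-type replicate 1 was the lowest library. The log2 fold change was 0.28 ± 0.23 (SE; adjusted p = 0.831 by edgeR), and 0.07 to 0.40 over the alternatives, lowest without wild-type replicate 1.

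Tlr7 and Tlr8, both receptors for single-stranded RNA, are neighbours on the X chromosome, 40599 bases apart on the minus strand. Tlr7 (chrX:167304929-167330558) was even, at 151, 146 and 178 TPM in Ts1Cje replicates 1 to 3, against 174, 176 and 123 TPM in wild-type replicates 1 to 3, a log2 fold change of 0.02 ± 0.20 (SE). Its 95% interval, a fold of 0.729 to 1.41, is among the narrower ones of the set.

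Tlr8 (chrX:167242696-167264329) had the widest range of log2 CPM of the 10 genes, 2.48 from lowest to highest library, followed by Tlr9 at 2.22. It had 39.6, 28.9 and 45.1 TPM in Ts1Cje replicates 1 to 3, against 87.1, 44.6 and 16.3 TPM in wild-type replicates 1 to 3. All 3 Ts1Cje libraries thus lay between the extremes of wild-type, whose CPM differed 5.6-fold between replicates 1 and 3, compared with 1.73-fold between the Ts1Cje libraries. Its log2 fold change was -0.38 ± 0.54 (SE; adjusted p = 0.901 by edgeR) and turned to 0.34 without wild-type replicate 1. The ratio of Tlr8 to Tlr7 in TPM was 0.262, 0.198 and 0.253 in Ts1Cje, against 0.5, 0.254 and 0.132 in wild-type libraries, so that neighbouring receptor genes for the same kind of ligand did not keep a fixed ratio. The nearest tested coding gene beyond Tlr8 was Tmsb4x, at 0.17 ± 0.20 (SE), and that beyond Tlr7 was Prps2, at -0.23 ± 0.42 (SE).

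The 3 genes whose library pattern was most like that of Tlr8 were Gpr155, Inka2 and H2-K1, a class I antigen-presenting chain. They were found among 10797 genes by the root mean square difference of mean-centred log2 CPM over the 6 libraries, which was 0.23, 0.24 and 0.24. H2-K1 had 461, 411 and 639 CPM in Ts1Cje replicates 1 to 3, against 1128, 630 and 323 CPM in wild-type replicates 1 to 3. Like Tlr8 it was highest in wild-type replicate 1 and lowest in wild-type replicate 3.

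Tlr3, the receptor for double-stranded RNA (chr8:45395665-45411080), had 19.6, 13.9 and 9.59 TPM in Ts1Cje replicates 1 to 3, against 11.6, 19.6 and 14.2 TPM in wild-type replicates 1 to 3. The groups overlapped almost fully, with a log2 fold change of -0.08 ± 0.28 (SE). Tlr3 overlaps 698 bases of an antisense gene, Gm45542, which had no count in any library. No other member overlapped a gene of the table.

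Tlr9, the receptor for unmethylated CpG DNA (chr9:106222598-106226883), was close to the filter. It had 16, 35 and 70 counts in Ts1Cje replicates 1 to 3, against 39, 66 and 17 counts in wild-type replicates 1 to 3, or 0.421 to 1.9 TPM in Ts1Cje and 0.561 to 2.13 TPM in wild-type libraries. Its 95% interval reached from a fold of 0.269 to 2.93, and a difference within these bounds was not detectable between these libraries.

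**Figure D4:**
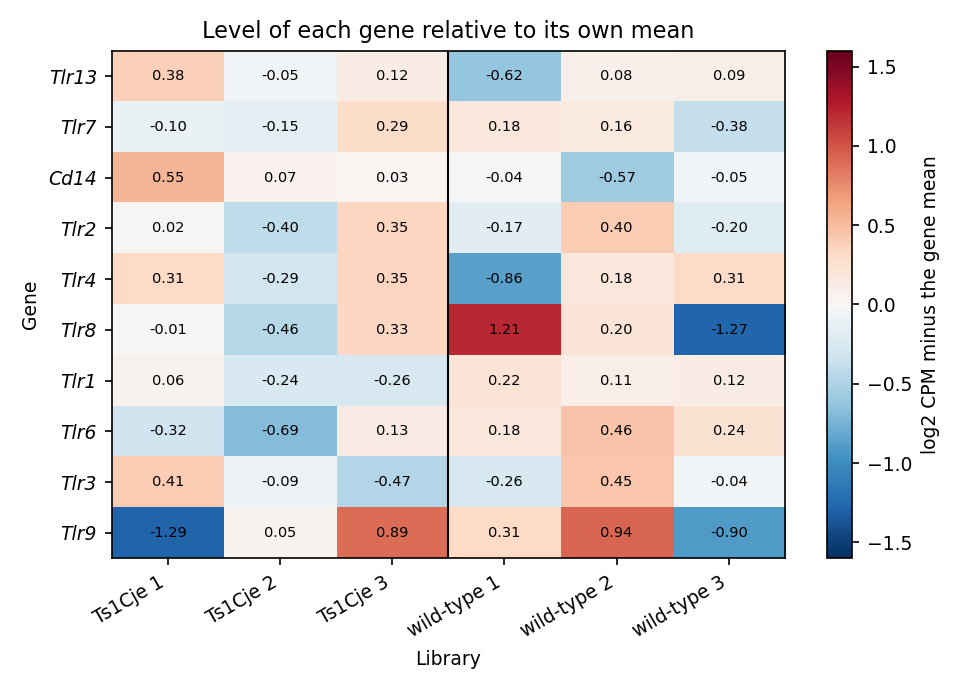
Log2 CPM of each gene in each library minus the mean of that gene over the 6 libraries, for Ts1Cje libraries (left) and wild-type libraries (right). Tlr8 spans 1.21 in wild-type replicate 1 to -1.27 in wild-type replicate 3, while Tlr1 stays within -0.26 to 0.22.

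The libraries did not shift all receptors the same way. In wild-type replicate 1, Tlr4 and Tlr13 lay 0.86 and 0.62 below their means on the log2 CPM scale while Tlr8 lay 1.21 above its mean. In Ts1Cje replicate 2, 8 of the 10 genes were below their means, and in wild-type replicate 2 Cd14 was 0.57 below its mean, the reverse of Tlr2, Tlr3 and Tlr6 in that library. Among all pairs the most alike were Tlr4 and Tlr13, with a root mean square difference of 0.20, followed by Tlr2 and Tlr7 at 0.23.

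The remaining Toll-like receptors of the mouse were scarce. Tlr5, for flagellin, had 30, 24 and 36 counts in Ts1Cje replicates 1 to 3, against 14, 156 and 80 counts in wild-type replicates 1 to 3, with a log2 fold change of -1.64 ± 0.77 (SE; unadjusted p = 0.0662 by edgeR) and overlapping groups. Tlr11 had 0 counts in each Ts1Cje library and 4, 6 and 6 counts in wild-type libraries, too few to test, and Tlr12 had none.

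Upstream DNA is shown for the receptors with the highest level (Tlr13), the lowest level (Tlr9) and the widest range of log2 CPM between libraries (Tlr8). The sequences are RefSeq promoter windows in GRCm38.p6, cut to the bases before the annotated gene, 5′ to 3′ on the gene's strand, at chrX:106143025-106143203 (plus), chr9:106222348-106222597 (plus) and chrX:167264330-167264579 (minus). Capitals mark GAGGAA, a core motif of ETS factors such as Spi1, searched on both strands.
Tlr13: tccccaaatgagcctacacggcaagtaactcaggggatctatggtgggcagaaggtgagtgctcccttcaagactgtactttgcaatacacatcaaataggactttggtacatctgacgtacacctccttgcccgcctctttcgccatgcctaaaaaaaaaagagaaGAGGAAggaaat
Tlr9: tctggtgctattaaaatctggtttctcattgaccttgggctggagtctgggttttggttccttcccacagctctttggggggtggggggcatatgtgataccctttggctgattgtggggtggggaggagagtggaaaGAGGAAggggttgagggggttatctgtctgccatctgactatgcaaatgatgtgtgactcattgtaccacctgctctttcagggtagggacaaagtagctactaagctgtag
Tlr8: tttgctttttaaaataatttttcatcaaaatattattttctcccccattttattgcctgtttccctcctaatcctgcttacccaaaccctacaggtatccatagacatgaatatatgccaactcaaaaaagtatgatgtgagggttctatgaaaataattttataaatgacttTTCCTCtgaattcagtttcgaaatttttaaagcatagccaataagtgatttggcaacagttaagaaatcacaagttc
Each of the 3 holds the motif once, in Tlr8 on the opposite strand. Promoter windows were found for 7 of the 10 genes, 9 windows in all, of which 4 held GAGGAA within 250 bases before the start, compared with 23.4% of 32536 windows of all genes. A second motif, GAAA followed by any 2 bases and another GAAA, typical of interferon regulatory factors, was in 1 of the 9. The share was 2.98% over all windows. That window, chr5:64959117-64959416, precedes a RefSeq start inside the annotated Tlr6 gene, and the other window of Tlr6 held none. No window of these genes held both motifs. The motif occurred at both ends of the level order, and a match is a description, not a binding site.

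Genes around these receptors were examined as 7 lists of 78 genes, of which 70 were tested: the other Toll-like receptors, co-receptors and trafficking proteins, adaptors, kinases and ligases, transcription factors, inhibitors and response genes. Of these, 0 passed edgeR over all genes tested, and 8 (11.4%) had an unadjusted p under 0.05, beside 5.79% of all genes tested. Positive and negative values were equal in number, 35 each, with a median of -0.01. The genotypes did not overlap for 7 of the 70 genes, with Ts1Cje above for 6 and below for 1, beside 6.38% above and 5.72% below over all genes tested. The same shares over all genes tested are the background of the counts given for each list.

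**Figure D5:**
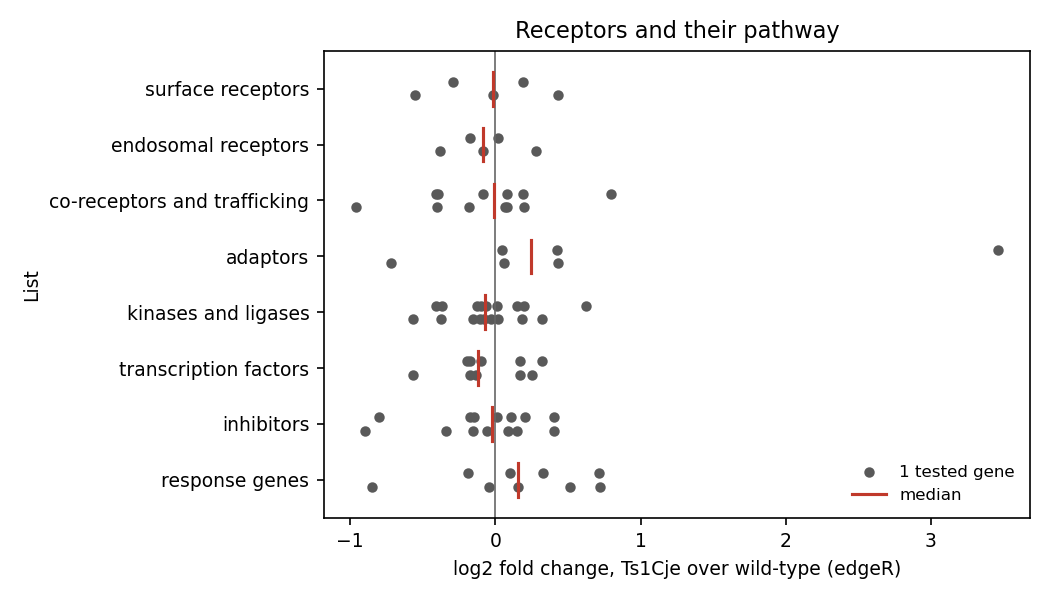
Log2 fold change of Ts1Cje over wild-type (edgeR) of each tested gene (points) in 8 lists of receptors and pathway genes, with the median of each list as a red line. The medians of the lists shown lie between -0.12 and 0.24, and the far point among the adaptors is Sarm1 at 3.46, which rests on few counts.

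Among 12 co-receptors and trafficking proteins, 6 values were positive and 6 negative. Cd180, a relative of Tlr4 without a signalling domain, had 74.4, 66.6 and 57.3 TPM in Ts1Cje replicates 1 to 3, against 34.5, 32.3 and 47.7 TPM in wild-type replicates 1 to 3. It was higher in each Ts1Cje library than in any wild-type library, at a log2 fold change of 0.80 ± 0.17 (SE), an unadjusted p of 0.00205 and an adjusted p of 0.792 by edgeR, and it was the 1 gene of the list called by DESeq2, which called 0.405% of all genes tested. Ly86, which Cd180 needs to reach the cell surface, had 40.8, 55.5 and 41.3 TPM in Ts1Cje, against 146, 97.4 and 21.7 TPM in wild-type libraries, at -0.96 ± 0.58 (SE). Its wild-type libraries spread widely and enclosed the Ts1Cje libraries, and replicate 1 was the highest and replicate 3 the lowest of them, as for Tlr8. Ly96, the partner of Tlr4, averaged 49.1 ± 7.1 TPM in Ts1Cje and 65.4 ± 12 TPM in wild-type libraries (SD, n = 3 each), at -0.41 ± 0.22 (SE). Unc93b1, the chaperone that brings receptors to endosomes, averaged 527 ± 114 TPM in Ts1Cje and 699 ± 165 TPM in wild-type libraries (SD, n = 3 each), at -0.40 ± 0.25 (SE). Ighm had 13.1, 22.9 and 31.6 TPM in Ts1Cje, against 53.6, 133 and 210 TPM in wild-type libraries, and its part in the value of Cd180, a gene that B cells also use, was not tested.

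Of the 6 adaptors 5 had positive values and 3 an unadjusted p under 0.05, a share that was 5.79% over all genes tested. Ticam1, the adaptor of Tlr3 and Tlr4, averaged 19.9 ± 3.32 TPM in Ts1Cje and 14.8 ± 1.29 TPM in wild-type libraries (SD, n = 3 each), at 0.43 ± 0.18 (SE), without overlap. Ticam2, which links Tlr4 to Ticam1, averaged 5.8 ± 1.39 TPM in Ts1Cje and 9.49 ± 3.03 TPM in wild-type libraries (SD, n = 3 each), at -0.72 ± 0.30 (SE), with overlap. Sarm1, a member of the adaptor family that degrades NAD, had 32, 18 and 30 counts in Ts1Cje replicates 1 to 3, against 0, 0 and 6 counts in wild-type replicates 1 to 3. Pik3ap1, which ties receptors to PI3 kinase, had 0.43 ± 0.30 (SE), and Myd88, the main adaptor, had 0.04 ± 0.15 (SE).

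Among 18 kinases and ligases, 7 values were positive and 11 negative, and 1 gene, Map3k8, had an unadjusted p under 0.05. Map3k8, the kinase that activates ERK downstream of the receptors, averaged 21.3 ± 1.1 TPM in Ts1Cje and 31.7 ± 8.42 TPM in wild-type libraries (SD, n = 3 each), at -0.57 ± 0.23 (SE). Ikbkg, the regulatory subunit of the IKK complex, had -0.37 ± 0.18, Traf3, a ubiquitin ligase, 0.63 ± 0.32 and Ikbke, a kinase of the interferon branch, -0.37 ± 0.20 (SE). Among 10 transcription factors, 4 values were positive and 6 negative. Rel, an NF-kappaB subunit, was lower in each Ts1Cje library, at 10.7, 10.2 and 9.13 TPM in Ts1Cje replicates 1 to 3, against 16, 16.4 and 12.2 TPM in wild-type replicates 1 to 3. Its log2 fold change was -0.57 ± 0.17 (SE; unadjusted p = 0.0128 and adjusted p = 0.792 by edgeR). Nfkb1, another NF-kappaB subunit, had 0.26 ± 0.15 (SE) and was higher in each Ts1Cje library than in any wild-type library. Spi1, a factor of the myeloid lineage, had 0.17 ± 0.16 and Rela, a further NF-kappaB subunit, -0.18 ± 0.17 (SE).

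Inhibitors of the pathway, 14 in all, had 7 positive and 7 negative values and 2 with an unadjusted p under 0.05. Tollip, which restrains Irak kinases, had 131, 140 and 137 TPM in Ts1Cje replicates 1 to 3, against 86.6, 102 and 122 TPM in wild-type replicates 1 to 3, without overlap, at 0.40 ± 0.15 (SE). Dusp1, a phosphatase of MAP kinases, averaged 434 ± 86.2 TPM in Ts1Cje and 763 ± 266 TPM in wild-type libraries (SD, n = 3 each), at -0.80 ± 0.30 (SE), with overlap. Irak3, an inactive kinase relative, and Tnip1, a ubiquitin-binding inhibitor of NF-kappaB, had 0.40 ± 0.31 and 0.21 ± 0.20 (SE). Response genes, 9 of 15 tested, had 6 positive and 3 negative values, and 0 an unadjusted p under 0.05. The chemokines Ccl4 and Ccl3 were at 3576 ± 1185 and 2420 ± 590 TPM in Ts1Cje, against 2177 ± 1213 and 1696 ± 778 TPM in wild-type libraries (SD, n = 3 each), that is 0.72 ± 0.40 for Ccl4 and 0.52 ± 0.31 for Ccl3 on the log2 scale (SE). The cytokine gene Tnf averaged 29.2 ± 18.8 TPM in Ts1Cje and 18.4 ± 7.45 TPM in wild-type libraries (SD, n = 3 each), at 0.71 ± 0.51 (SE). Il1b stayed under 3 TPM in each library, at -0.85 ± 1.71 (SE). None of the response genes was called by DESeq2.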

How the data were processed

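Total RNA was turned into sequencing libraries with the SMART-seq HT Plus kit, per the labels' protocols. FastQC 0.11.7, Trimmomatic 0.38, HISAT2 2.1.0, featureCounts 1.6.3 and mm10 are named in the submitters' processing notes. The authors deposited raw counts per gene and TPM. The deposited TPM equal each deposited count over its gene length, scaled per library, within 0.1% on 9151 of 9151 genes with at least 100 counts in every library. Strand and multi-mapping settings are not given in the sources used here.

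Counts were tested with edgeR 4.0.16 in R 4.3.3: filterByExpr (count minimum 10, total minimum 15), TMM factors, genotype as the only term, the quasi-likelihood test and Benjamini-Hochberg adjustment over 13821 genes, threshold 0.05. The SE is the log2 fold change divided by the root of F; intervals are at 95%. CPM use the TMM-scaled library size, and log2 CPM a prior count of 2. No list was tested as a list. On a simulated data set, drawn with the spread per gene that edgeR estimated, DESeq2 made more false calls than edgeR and limma-voom. Such a draw follows edgeR's model, so it cannot rank the tools on these libraries.

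Named are the 10 genes, Tlr5, Tlr11 and Tlr12, up to 4 genes with the smallest p of each pathway list, and the 3 genes most like the member with the widest range. Other genes named were chosen after their values were seen. Members and lists were chosen with earlier results of these data known. The total counts limit precision, and PCR reads without molecular identifiers are not independent molecules. Gene models and transcripts came from GENCODE M21, whose coordinates equal those of the table for all 10 genes, and promoters from RefSeq. Coding sequences were aligned with Biopython 1.88. Alternatives were RLE and upper-quartile factors, no filter, a count minimum of 50, DESeq2 1.42.0, limma-voom (limma 3.58.1), limma on log2(TPM + 1) and log2(TPM + 0.1) with a mean TPM of at least 1, log2(TPM + 1) without that minimum, a replicate block, and leaving out 1 library at a time.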

Additional observations from a re-analysis of the deposited data

How the results depend on the processing

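The count of receptor genes past the threshold was 0 in all 16 alternatives. Tlr1, Tlr6, Cd14 and Tlr13 kept their direction in each of them, with log2 fold changes of -0.40 to -0.24, -0.80 to -0.38, 0.25 to 0.52 and 0.07 to 0.40. Tlr6 had an unadjusted p under 0.05 in 11 of the 16. Tlr7, at 0.02, was -0.0198 with upper-quartile factors. With 1 library left out, the log2 fold change ranged from -0.22 to 0.20 for Tlr2, -0.34 to 0.14 for Tlr3, -0.11 to 0.40 for Tlr4, -0.14 to 0.10 for Tlr7, -0.80 to 0.34 for Tlr8 and -0.82 to 0.31 for Tlr9, and the median of the 10 genes from -0.18 to 0.17, reached without wild-type replicate 2. Tlr9 was not tested under the stricter filter. Over all genes, 1 passed in the reported fit, 3 with no filter, 56 with DESeq2 and 1 to 6 with a library left out (6 without wild-type replicate 3). Without wild-type replicate 3, 2347 of 14620 genes had an unadjusted p under 0.05 by edgeR, against 800 of 13821 in the reported fit. Leaving out any other library gave 540 to 688 such genes. Of the 10 receptor genes, 0 had such a p without wild-type replicate 3.

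Same-numbered libraries did not deviate together, with correlations of -0.29, -0.04 and -0.17 for numbers 1 to 3, so the numbers are not read as pairs. With the replicate number as a block, 0 genes passed (634 at an unadjusted p under 0.05) and Tlr6 had -0.59. The causes of these shifts were not tested.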
